A study of Mus musculus with 4 samples.

Results

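The mRNA levels of 10 circadian clock genes were examined in small intestinal group 3 innate lymphoid cells (ILC3s) with and without Brg1, the ATPase of the BAF chromatin-remodeling complex that is encoded by Smarca4. The genes are Arntl, Clock, Per1, Per2, Per3, Cry1, Cry2, Nr1d1, Nr1d2 and Dbp, taken by symbol from the 53379 genes of the expression table. All 10 were found, each in 1 row, and all 10 passed the expression limit for testing (a mean above 1 FPKM in either group, met by 14739 genes). FPKM is the number of fragments scaled to transcript length and to the size of the library, so that levels of different genes can be set side by side. The ILC3s came from mixed bone marrow chimeras of C57BL/6 mice. Rag2-/-Il2rg-/- hosts, irradiated at a sublethal dose, received equal numbers of bone marrow cells of 2 donors, and their small intestinal lamina propria was taken 6 to 7 weeks later. Control cells were of Thy1.2 Rag1-/-Smarca4f/f origin and were sorted as Thy1.2-high, Thy1.1-negative and CD45-low. Brg1-deficient cells were of Thy1.1Thy1.2 Rag1-/-Smarca4f/f origin with a Cre transgene that deletes Smarca4 in ILC3s, and were sorted as Thy1.2-high, Thy1.1-positive and CD45-low. Both donors thus lacked Rag1 and carried the floxed Smarca4 alleles, and they differed in the Cre transgene, which the control donors lacked, and in the Thy1 allele. Each group had 2 libraries, described as biological duplicates. The age of the donors and hosts, the sex of the mice behind each library, the number of hosts behind a library and the time of day of collection are not given in the sources used here. Clock genes cycle over the day, and each library shows 1 moment of it.

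The mammalian clock is a feedback loop of transcription. BMAL1 (the product of Arntl) and CLOCK form a dimer that binds E-box elements and switches on the Per and Cry genes, whose proteins then block the dimer. The same dimer drives Nr1d1 and Nr1d2, which encode the repressors REV-ERBα and REV-ERBβ, and Dbp, which encodes an activator of genes with D-box elements. REV-ERB proteins compete with ROR receptors at shared elements, among them those of Arntl. Clock genes are known to be expressed in intestinal ILC3s.

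The promoter sequences of the members on which the comparison turns are given first, because clock genes are known to act on one another through such elements. They are RefSeq windows on GRCm38.p6 from 250 bases before to 50 bases after a start site, and 9 of the 10 members had one. Capitals mark the E-box CACGTG, an E-box variant spelled CACGTT, the D-box TTATGTAA and the ROR element, which ends in TAGGTCA. Each was searched on both strands, so a match on the other strand reads as its reverse complement. The first 3 windows belong to the members that were higher in Brg1-deficient cells by the criteria below or came nearest to them. Nr1d1 lies at chr11:98775328-98775627 (minus strand), Dbp at chr7:45704997-45705296 (plus strand) and Per3 at chr4:151044616-151044915 (minus strand).
Nr1d1: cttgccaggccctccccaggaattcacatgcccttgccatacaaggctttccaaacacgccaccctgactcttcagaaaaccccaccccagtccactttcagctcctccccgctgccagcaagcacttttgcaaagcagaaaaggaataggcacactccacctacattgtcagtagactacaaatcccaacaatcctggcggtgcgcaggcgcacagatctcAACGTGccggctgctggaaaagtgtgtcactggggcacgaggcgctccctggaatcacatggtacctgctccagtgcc
Dbp: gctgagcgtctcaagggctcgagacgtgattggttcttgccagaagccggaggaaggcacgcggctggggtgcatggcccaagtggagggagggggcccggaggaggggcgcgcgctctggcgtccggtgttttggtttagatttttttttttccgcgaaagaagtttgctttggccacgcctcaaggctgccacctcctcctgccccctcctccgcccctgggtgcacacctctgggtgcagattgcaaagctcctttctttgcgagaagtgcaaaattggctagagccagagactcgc
Per3: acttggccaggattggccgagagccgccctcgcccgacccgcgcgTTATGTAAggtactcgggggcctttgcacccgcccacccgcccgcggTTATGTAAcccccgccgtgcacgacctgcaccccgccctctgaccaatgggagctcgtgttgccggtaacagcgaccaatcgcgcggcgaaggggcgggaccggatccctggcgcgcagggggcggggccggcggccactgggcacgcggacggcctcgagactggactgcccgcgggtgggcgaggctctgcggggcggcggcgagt
The Nr1d1 window held the E-box variant once, the Per3 window held the D-box TTATGTAA 2 times, and the Dbp window held none of these elements. The variant was found in 4.68% of the 32851 promoter windows of all genes and this D-box in 0.938%.

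The next 3 windows belong to members that passed no test, and were chosen because they hold the elements by which the loop is known. Per1 lies at chr11:69098699-69098998 (plus strand), Cry1 at chr10:85185005-85185304 (minus strand) and Arntl at chr7:113207261-113207560 (plus strand).
Per1: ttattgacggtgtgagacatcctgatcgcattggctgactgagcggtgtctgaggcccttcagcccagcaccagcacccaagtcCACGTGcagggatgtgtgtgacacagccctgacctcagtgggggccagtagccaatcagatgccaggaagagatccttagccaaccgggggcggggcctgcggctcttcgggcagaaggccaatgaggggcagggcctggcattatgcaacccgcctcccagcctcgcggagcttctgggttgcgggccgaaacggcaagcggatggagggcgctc
Cry1: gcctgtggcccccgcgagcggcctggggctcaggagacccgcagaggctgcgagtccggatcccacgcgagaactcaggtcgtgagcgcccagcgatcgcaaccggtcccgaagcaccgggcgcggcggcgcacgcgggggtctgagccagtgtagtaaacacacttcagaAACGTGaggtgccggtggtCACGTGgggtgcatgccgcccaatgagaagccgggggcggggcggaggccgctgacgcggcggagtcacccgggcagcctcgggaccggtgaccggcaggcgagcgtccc
Arntl: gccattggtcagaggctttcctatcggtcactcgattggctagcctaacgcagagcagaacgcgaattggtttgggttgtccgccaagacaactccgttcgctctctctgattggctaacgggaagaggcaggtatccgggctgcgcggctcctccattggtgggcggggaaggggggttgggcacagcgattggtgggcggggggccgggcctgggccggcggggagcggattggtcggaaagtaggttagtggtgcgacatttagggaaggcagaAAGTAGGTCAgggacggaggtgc
The windows shown for Per1 and Cry1 held the E-box CACGTG, which was found in 7.15% of all windows, and that of Cry1 also held the variant. Per1 and Arntl each had a second window, of another start site, and these held 0 of the elements. Among members not shown, the Cry2 window held the variant, and the windows of Clock and Nr1d2 held 0 of the elements. The ROR element of Arntl began 27 bases after the start site. The whole element was found in 0.219% of all windows and its last 7 letters in 2.61%. These matches describe letters in short windows, and elements elsewhere in a gene were not searched. The D-box TTACGTAA and the cAMP element TGACGTCA, which were also searched, occurred in none of the 13 member windows and in 0.119% and 1.79% of all windows.

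The libraries were checked before the members were compared. Smarca4 had 17.1 and 16.7 FPKM in controls against 9.98 and 9.03 FPKM in Brg1-deficient cells, a difference in the labelled direction (log2 fold change -0.77, limma adjusted p = 0.153). Values per exon were not used, so transcripts of the deleted allele were not separated. Sorted FPKM values were nearly the same in all libraries (99.3% of 13693 ranks above 1 FPKM lay within 1% of each other), so a difference in total RNA cannot be seen. A log2 fold change is the difference of mean log2(FPKM + 1), Brg1-deficient minus control, and is smaller than the true change where FPKM is low. It was tested with limma, and p-values were adjusted over all 14739 genes. An exact two-sided permutation test of 1 gene, 2 libraries against 2, gives 0.333 at best, so the p-values depend on limma's pooling of variance. Nothing shows that the duplicates came from separate hosts, so the spread may be partly technical. In bulk RNA, fewer cells of a type and less RNA per cell cannot be told apart.

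The members differed widely in level. In controls the highest member was Nr1d1, with a mean of 155 FPKM, followed by Per1 (97.0), Nr1d2 (88.9), Arntl (40.6), Cry2 (28.4), Cry1 (22.9), Clock (14.6), Dbp (13.6), Per3 (3.74) and Per2 (1.17). Between most neighbours in this order the control libraries did not overlap. The exceptions were Per1 with Nr1d2 and Clock with Dbp. In Brg1-deficient cells the order was that of controls except that Dbp, with a mean of 19.5 FPKM, stood above Clock, with 14.4 FPKM, and their libraries did not overlap.

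**Figure D1:**
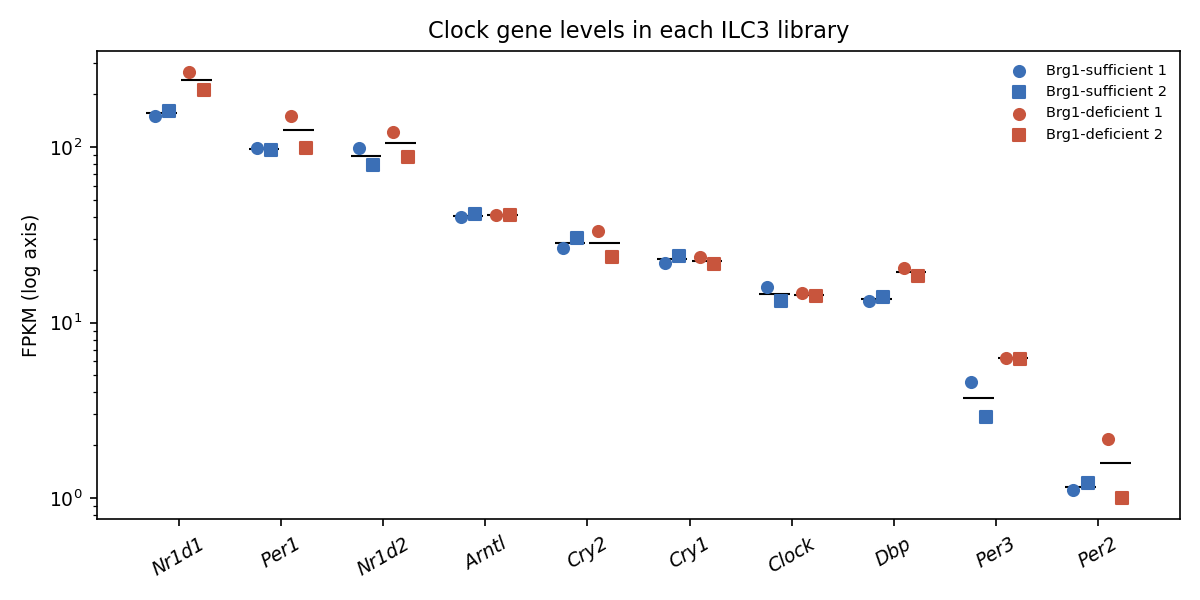
FPKM (log axis) of the 10 clock genes in the 2 Brg1-sufficient control libraries (blue) and the 2 Brg1-deficient libraries (red); circles are library 1, squares are library 2, and black lines are group means. Nr1d1, Dbp, Per3 and Per1 are the genes in which both red points lie above both blue points, and Per1 by a margin that rests on library 1.

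Nr1d1, a repressor gene of the loop, and Dbp, its output gene, had means without Brg1 of 1.54 and 1.43 times the control mean. Neither reached an adjusted p under 0.05 in limma. The activators Arntl and Clock overlapped between the groups, and so did the repressor genes Nr1d2, Per2, Cry1 and Cry2. The study's methods set an FDR under 0.05 for changed genes and a looser set of criteria for the lists that entered its gene ontology analysis, called list criteria here (p under 0.05, FDR under 0.4, a mean above 5 FPKM in either group and a fold of the means beyond 0.5 on the log2 scale). By the list criteria, 2 of the 10 members were higher in Brg1-deficient ILC3s, Nr1d1 and Dbp, and 0 were lower. Over all genes tested, the same criteria called 3.85% higher and 4.37% lower. These shares include genes without a mean above 5 FPKM, which cannot be called. A separate fit limited to a mean above 5 FPKM called 525 of 9095 genes higher (5.77%) and 615 lower, and the same 2 members higher. In the main fit, at an adjusted p under 0.05, limma called 0 of the 10 members in either direction, against 0.0814% of all genes higher and 0.224% lower. At an unadjusted p under 0.05 it called the same 2 members higher (6.12% of all genes) and 0 lower (6.47%). In 4 members (Nr1d1, Dbp, Per3 and Per1) both Brg1-deficient libraries were above both controls, as in 24.4% of all genes. In 0 members were both below, as in 20.2% of all genes, so that 4 of 10 members and 44.6% of all genes did not overlap in either direction. The median log2 fold change was 0.22 over the 10 members and 0.03 over all genes.

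**Figure D2:**
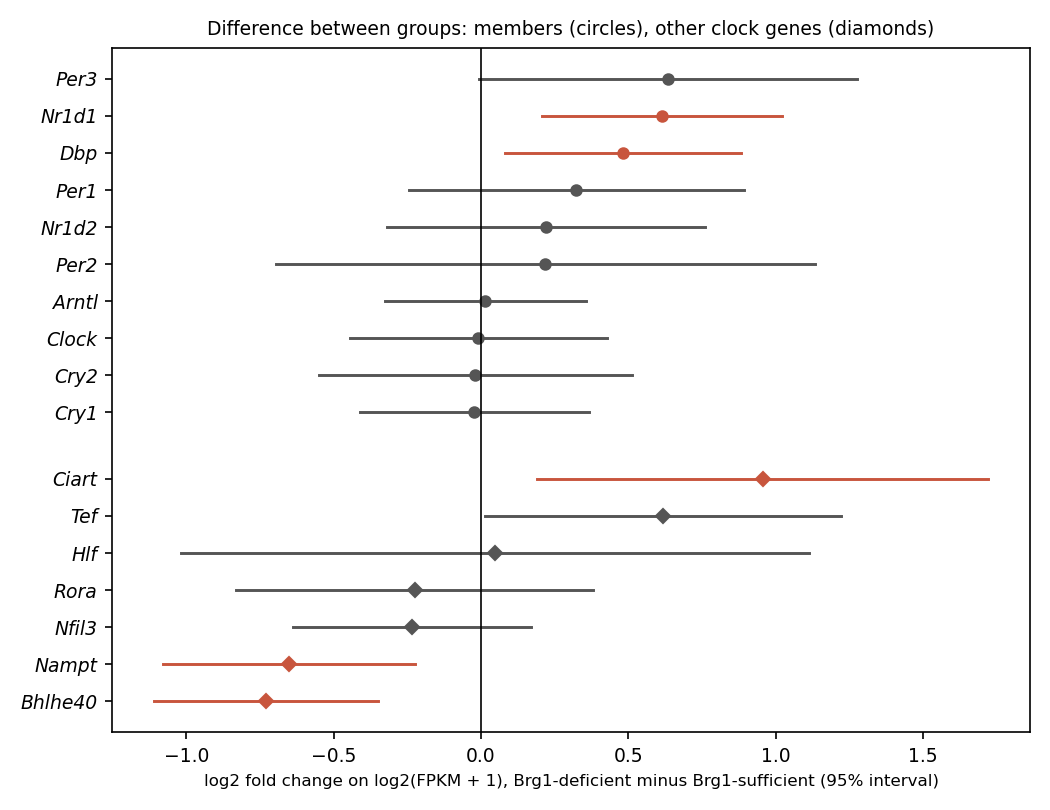
Log2 fold change on log2(FPKM + 1), Brg1-deficient minus Brg1-sufficient, with its 95% interval from limma, for the 10 members (circles) and 7 other clock-related genes (diamonds); red marks genes that met the study's list criteria. Nr1d1 (0.61) and Dbp (0.48) are the red members, and the interval of Per3 (0.64) reaches just below 0.

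Nr1d1, on chromosome 11 from 98767932 to 98775333 (minus strand, GRCm38), had 151 and 159 FPKM in controls and 266 and 211 FPKM in Brg1-deficient cells. The groups did not overlap, and their means of 155 ± 6.05 and 239 ± 39.0 FPKM (SD, n = 2 each) were 1.54-fold apart. Nr1d1 differed by 0.61 on the log2 scale (standard error 0.162, 95% interval 0.21 to 1.02, limma adjusted p = 0.228). Its unadjusted limma p was 0.0112, while an exact permutation test of 2 libraries against 2 allows none below 0.333. In the 4 fits on 3 libraries the estimate went from 0.45 to 0.78, and Nr1d1 met the list criteria in none of them (limma, adjusted p from 0.281 to 0.592). The exons of Nr1d1 share 263 bases (8.55% of its exon bases) with Thra, which encodes a thyroid hormone receptor on the opposite strand. The use of strand in counting is not given in the sources used here, so reads of the shared bases cannot be told apart. Thra itself had 7.71 and 8.28 FPKM in controls and 8.82 and 9.72 FPKM in Brg1-deficient cells (log2 fold change 0.19, limma adjusted p = 0.689).

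Nr1d2, the other REV-ERB gene, on chromosome 14 from 18204054 to 18239127, had 98.7 and 79.1 FPKM in controls. It had 122 and 87.5 FPKM without Brg1, so that the groups overlapped. Its log2 fold change of 0.22 had a 95% interval from -0.32 to 0.76 (limma, adjusted p = 0.701) and was -0.01 without Brg1-deficient library 1. An increase as large as that estimated for Nr1d1 therefore lies within the interval of Nr1d2, and the difference between these related genes was not tested.

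Dbp, on chromosome 7 from 45705088 to 45710203 (plus strand), was the other member that met the list criteria. It had 13.3 and 14.0 FPKM in controls and 20.5 and 18.5 FPKM in Brg1-deficient cells, with no overlap and a 1.43-fold difference of the means (13.6 ± 0.481 and 19.5 ± 1.42 FPKM, SD, n = 2 each). The log2 difference was 0.48 (standard error 0.159, 95% interval 0.08 to 0.88, limma adjusted p = 0.321). The unadjusted limma p was 0.0266, and the limit of 0.333 for an exact permutation test holds here too. On 3 libraries the estimate went from 0.41 to 0.55, and Dbp met the list criteria in none of the 4 fits (limma, adjusted p from 0.243 to 0.696). Dbp shares 539 exon bases, or 18.0% of its own, with the sphingosine kinase gene Sphk2 on the opposite strand. Sphk2 had 28.4 and 32.7 FPKM in controls against 36.8 and 29.3 FPKM in Brg1-deficient cells, and these groups overlapped.

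The 3 Period genes encode the proteins that, with cryptochromes, close the loop. Per3, on chromosome 4 from 151003652 to 151044665, had 4.60 and 2.88 FPKM in controls and 6.25 and 6.23 FPKM in Brg1-deficient cells. The groups did not overlap and the 2 Brg1-deficient libraries were nearly equal, while the controls differed from each other. Per3 had the largest estimate of the members, a log2 fold change of 0.64 (standard error 0.255, 95% interval -0.01 to 1.28), but it did not meet the list criteria (limma, adjusted p = 0.402). Its unadjusted limma p was 0.0515, with the same limit of 0.333 for an exact permutation test. Without control library 1 the list criteria were met (log2 fold change 0.90, limma adjusted p = 0.326), and across all fits without a library the estimate went from 0.37 to 0.90. Per3 lies within the longer gene Camta1 on the same strand and shares 0 exon bases with it. Camta1, a transcription activator, had 28.2 and 27.5 FPKM in controls and 19.8 and 20.2 FPKM in Brg1-deficient cells (log2 fold change -0.46, limma adjusted p = 0.303), opposite in direction to Per3.

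Per1, on chromosome 11 from 69095217 to 69109960, had 97.9 and 96.1 FPKM in controls and 151 and 98.0 FPKM in Brg1-deficient cells. Only Brg1-deficient library 1 stood apart from the rest. The log2 fold change was 0.32 (95% interval -0.25 to 0.89, limma adjusted p = 0.615), and without that library it was 0.02. Per2, on chromosome 1 from 91415982 to 91459324, was near the expression limit, with 1.11 and 1.22 FPKM in controls and 2.17 and 1 FPKM without Brg1. Its higher value again came from Brg1-deficient library 1, the groups overlapped, and the log2 fold change of 0.22 (95% interval -0.70 to 1.13, limma adjusted p = 0.835) was -0.11 without that library.

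The activators of the loop showed no difference beyond the spread between libraries. Arntl, on chromosome 7 from 113207465 to 113314126, had 39.9 and 41.2 FPKM in controls and 41.1 and 40.9 FPKM in Brg1-deficient cells. The groups overlapped, and the log2 fold change was 0.02 with a 95% interval from -0.33 to 0.36 (limma, adjusted p = 0.974). Clock, on chromosome 5 from 76209868 to 76304792, had 15.9 and 13.3 FPKM in controls and 14.7 and 14.1 FPKM in Brg1-deficient cells. Its log2 fold change was -0.01 with a 95% interval from -0.44 to 0.43 (limma, adjusted p = 0.989). Differences within these intervals were not detectable with 2 libraries in each group.

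The cryptochromes, which bind and block the BMAL1-CLOCK dimer, also overlapped between the groups. Cry1, on chromosome 10 from 85131700 to 85185064, had 21.9 and 23.9 FPKM in controls and 23.5 and 21.5 FPKM without Brg1 (log2 fold change -0.02, 95% interval -0.41 to 0.36, limma adjusted p = 0.963). Cry2, on chromosome 2 from 92403646 to 92434043, had 26.6 and 30.3 FPKM in controls and 33.2 and 23.5 FPKM without Brg1. Its Brg1-deficient libraries lay on both sides of the controls (log2 fold change -0.02, 95% interval -0.55 to 0.51, limma adjusted p = 0.979). The exons of Cry2 share 295 bases with the noncoding gene D930015M05Rik on the opposite strand, which had 1.70 to 2.82 FPKM.

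**Figure D3:**
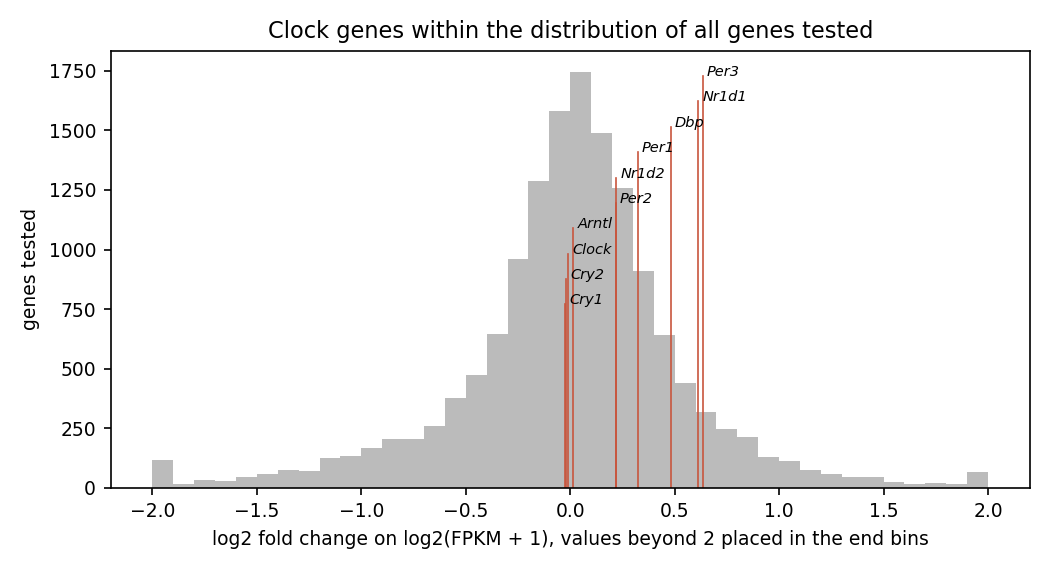
Histogram of the log2 fold changes (Brg1-deficient minus Brg1-sufficient, on log2(FPKM + 1)) of the 14739 genes tested, with the number of genes on the vertical axis and values beyond 2 in the end bins; red lines mark the 10 members, with heights set only to separate the names. Arntl, Clock, Cry1 and Cry2 stand near 0, and Per1, Dbp, Nr1d1 and Per3 stand to the right, within the spread of all genes.

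Brg1-deficient library 1 had the highest value of the 4 libraries in 7 of the 10 members (Nr1d1, Nr1d2, Per1, Per2, Per3, Cry2 and Dbp), compared with 23.8% of all genes tested. The list criteria called 0 members higher without this library, without Brg1-deficient library 2 and without control library 2, and 1 (Per3) without control library 1. In the same fits the share of all genes called higher was 0.367%, 0.253%, 4.92% and 2.73%, so calls over all genes also fell without either Brg1-deficient library. Without Brg1-deficient library 1, the log2 fold changes of Nr1d1, Dbp and Per3 were 0.45, 0.41 and 0.63. In these 3 genes Brg1-deficient library 2 alone was above both controls, which was not so for Nr1d2, Per2 and Cry2, and in Per1 was so by under 1 FPKM.

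Other genes of the clock were taken from a list of 30 regulators, of which 28 were tested. The list criteria called 1 of them higher (Ciart) and 2 lower (Bhlhe40 and Nampt) in Brg1-deficient cells, against 3.85% of all genes higher and 4.37% lower. At an adjusted p under 0.05 limma called 0 in either direction, and at an unadjusted p under 0.05 it called 2 higher and 2 lower, against 6.12% and 6.47% of all genes. In 5 of the 28 both Brg1-deficient libraries were above both controls and in 5 both were below, against 24.4% and 20.2% of all genes. These counts are near those shares. The median log2 fold change of the 28 genes was -0.03. Rorb and Bhlhe41 did not reach the expression limit, with 0.15 to 0.59 and 0.10 to 0.26 FPKM.

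Rora, which encodes an ROR receptor that opposes REV-ERB proteins, had 784 and 613 FPKM in controls and 723 and 486 FPKM without Brg1, with overlap of the groups and a log2 fold change of -0.22 (limma adjusted p = 0.732). Ciart encodes a further repressor of the BMAL1-CLOCK dimer. It had 24.5 and 13.4 FPKM in controls and 40.6 and 32.3 FPKM in Brg1-deficient cells, a log2 fold change of 0.95 (standard error 0.304, limma adjusted p = 0.304) that was 0.55 and no longer called without control library 2. Its log2 fold change was 0.79 without Brg1-deficient library 1 and 1.12 without Brg1-deficient library 2. In these fits no gene of this list was called, and calls over all genes also fell in both directions.

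Bhlhe40 encodes a repressor that competes for E-box elements. It had 1293 and 1121 FPKM in controls and 767 and 687 FPKM in Brg1-deficient cells, which did not overlap (log2 fold change -0.73, standard error 0.151, limma adjusted p = 0.148). Nampt, which encodes the rate-limiting enzyme of NAD salvage and is a known clock output, fell from 16.7 and 14.7 FPKM to 9.94 and 9.28 FPKM (log2 fold change -0.65, standard error 0.170, limma adjusted p = 0.223). Tef, a relative of Dbp, had 2.47 and 2.96 FPKM in controls and 4.14 and 5.29 FPKM without Brg1, with no overlap (log2 fold change 0.62, limma adjusted p = 0.385), and its means did not pass the 5 FPKM limit of the list. Hlf, the third gene of this family, ranged from 0.96 to 2.94 FPKM with overlap of the groups (log2 fold change 0.05, limma adjusted p = 0.975). Nfil3, whose product competes with these activators at D-box elements, had 222 and 249 FPKM in controls and 221 and 181 FPKM in Brg1-deficient cells. Its log2 fold change was -0.23 (95% interval -0.64 to 0.17, limma adjusted p = 0.61).

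**Figure D4:**
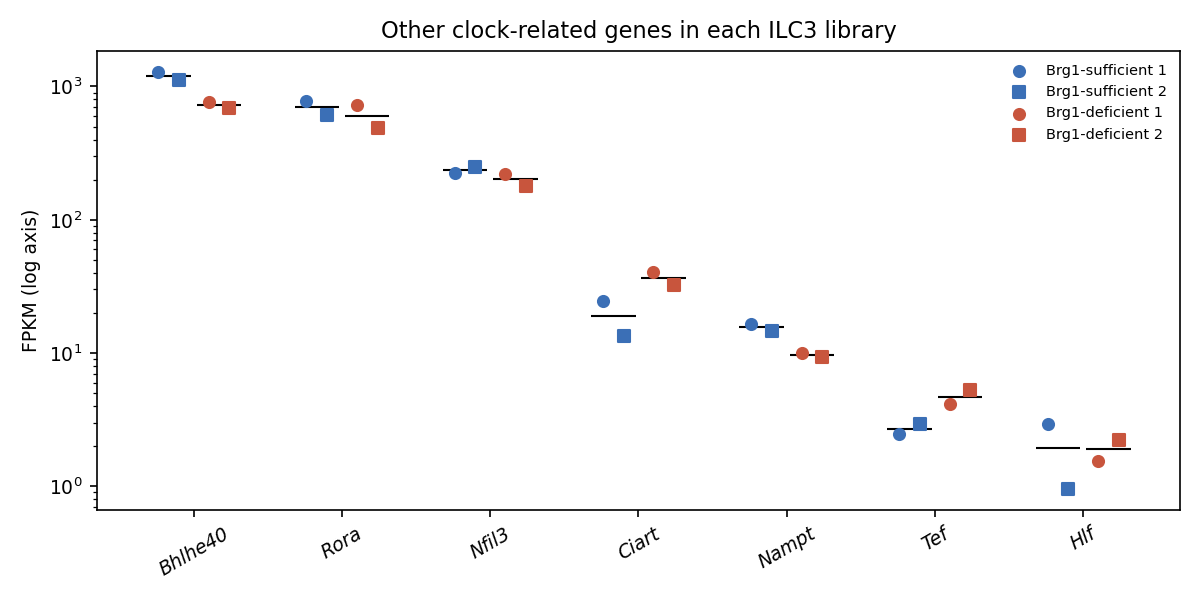
FPKM (log axis) of 7 clock-related genes outside the 10 members, with control libraries in blue, Brg1-deficient libraries in red, circles for library 1, squares for library 2 and black lines for group means. Both red points lie above both blue points for Ciart and Tef and below them for Bhlhe40, Nampt and Nfil3. The margin of Nfil3 is narrow, with 222 FPKM in control library 1 and 221 FPKM in Brg1-deficient library 1. Ciart and Nampt are shown because they met the list criteria, and of all 28 other clock genes tested, 18 overlapped between the groups.

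Genes of other cell types and of cell states also differed between the groups, and their part in the clock results was not tested. Calls on these lists are by the list criteria, which called 3.85% of all genes higher and 4.37% lower. Ncr1, the marker of NKp46+ILC3s, had 31.3 and 35.5 FPKM in controls and 5.37 and 6.02 FPKM in Brg1-deficient cells, and Tbx21 had 4.21 and 6.04 against 1.28 and 0.90 FPKM. Of 13 tested genes on a list of 15 for NKp46+ILC3s, ILC1s and NK cells, 5 were lower and 2 higher by the list criteria, with summed levels of 793 and 1010.49 FPKM in controls and 960 and 729 FPKM without Brg1. Of 9 tested ILC2 genes (of 11), 6 were lower and 1 higher, and their sum went from 380 and 213 FPKM to 116 and 141 FPKM. Of 6 tested T cell genes (of 8), 2 were lower and 0 higher, with sums of 92.4 and 29.4 FPKM in controls and 10.1 and 24.8 FPKM without Brg1, and with Cd3e at 8.95 and 7.02 against 1.01 and 3.08 FPKM. The study describes Rag1-/- mice, the genotype of both donors, as lacking T and B cells. Which cells the transcripts of T and B cell genes came from was not tested. Epithelial genes summed to 5.98 and 7.49 FPKM in controls and 20.4 and 17.7 FPKM in Brg1-deficient cells (3 of 9 tested, 1 higher and 0 lower), while the defining marker Epcam had 1.5 and 1.79 FPKM in controls and 0.68 and 0.54 FPKM without Brg1, opposite in direction to the sum (log2 fold change -0.72, limma adjusted p = 0.462). Sums of myeloid genes were higher in the library numbered 2 of each group, with 110 and 242 FPKM in controls and 83.0 and 224 FPKM without Brg1 (8 of 9 tested, 0 higher and 1 lower), and Csf1r was at 1.60 to 6.88 FPKM. The ILC3 list (13 of 13 tested) had 1 gene higher and 1 lower, and its sum stood apart in Brg1-deficient library 1, at 24692 FPKM against 12393 to 14367 FPKM in the other libraries. That library had the highest value in 3 of these 13 genes, against 23.8% of all genes tested. The sum therefore does not describe most genes of the list. The list for CCR6+ILC3s (6 of 6 tested) had 1 gene higher and 3 lower, with sums of 548 and 553 FPKM in controls and 467 and 448 FPKM without Brg1. Of the B cell genes, 1 of 6 was tested, and it was lower (limma adjusted p = 0.0386). Their sums were 9.87 and 10.9 FPKM in controls and 2.61 and 1.78 FPKM without Brg1. Mast cell genes (1 of 5 tested, 0 called) summed to 10.9 and 8.76 FPKM in controls and 6.64 and 6.8 FPKM without Brg1. Sums of stromal and endothelial genes (4 of 9 tested, 0 called) overlapped, at 74.8 and 101 FPKM in controls and 78.2 and 75.6 FPKM without Brg1.

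Per1 is also known as a gene that stimuli and glucocorticoids induce quickly, so genes of both responses were set beside it. Of 12 immediate early genes, 10 had a log2 fold change above 0, 6 were higher in both Brg1-deficient libraries than in both controls, and 1 was higher and 0 lower by the list criteria (median log2 fold change 0.28). Over all genes, 24.4% did not overlap in the higher direction, and the list criteria called 3.85% higher and 4.37% lower. Their sums were 13334 and 17284 FPKM in controls and 16189 and 18834 FPKM in Brg1-deficient cells. Of 8 glucocorticoid-induced genes, 3 had a log2 fold change above 0, and 1 was higher and 0 lower by the list criteria (median -0.05), with sums of 1961 and 1932 FPKM in controls and 1739.7 and 2009.8 FPKM in Brg1-deficient cells. The part of either response in the level of Per1 was not tested.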

How the data were processed

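RNA of ILC3s sorted from mixed bone marrow chimeras was sequenced in 4 libraries. Per the labels and the study's methods, the authors mapped reads to GRCm38.p5 with STAR 2.5, quantified genes with RSEM 1.2 on GENCODE M16 and deposited FPKM values. Quantile normalization gives equal distributions such as these, and is not given in the sources used here. Counts were not used, so the depth is unknown and counting error could not be given. The number of columns of per-sample values left out was 0.

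The design named a count test first, with limma for FPKM. Genes with a mean above 1 FPKM in either group entered limma 3.58.1 in R 4.3.3 (lmFit, eBayes with trend) on log2(FPKM + 1), and p-values were adjusted by Benjamini-Hochberg over all of them. Members, lists and rules were chosen with earlier results of these data known. Described genes were the members, the genes of a list of clock regulators that met the list criteria, and Rora, Nfil3, Bhlhe40, Bhlhe41, Tef and Hlf. Cell type and response lists were summed and counted. Some genes of these lists, and the name of the Cre driver, are not reported here. All 10 members matched GENCODE M21 (GRCm38) by identifier. Per2 had no promoter window. Scripts were tested on simulated data. Neighbouring genes were chosen by position.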

Additional observations from a re-analysis of the deposited data

How the results depend on the processing

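Alternatives were log2(FPKM + 0.1), no filter on low FPKM, a mean above 5 FPKM, quantile normalization, rescaling to equal sums, limma without trend, the replicate number as a block, and leaving out each library. In the members, the 69 values under the first 7 kept their sign, which most of these settings could hardly alter. The filters, limma without trend and the replicate block leave the estimate itself unchanged and act on its error or on the adjustment. Quantile normalization and rescaling acted on libraries whose distributions were already nearly equal. Per2, Tef and Hlf have no value at a mean above 5 FPKM. With no filter, which tested 44235 genes, the members called by the list criteria went from 2 to 0, and the other clock genes called went from 1 to 0 higher and from 2 to 1 lower. Calls over all genes fell in the same setting, from 568 to 161 higher and from 644 to 236 lower. Each host held cells of both donors, so same-numbered libraries may come from the same hosts, which the sources used here do not say. Their deviations did not correlate across genes (-0.00039), which does not settle whether they are paired. The main fit did not pair them. With the replicate block, 1 of the other clock genes, Ciart, was higher at an adjusted p under 0.05 (limma adjusted p = 0.0452), against 0 without the block. Over all genes the block moved such calls from 12 to 150 higher and from 33 to 248 lower. The block also brought Per3 past the list criteria (limma adjusted p = 0.332) and changed no other call among the members.

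With 1 library left out, the lone library of a group was assumed to vary like the others. Fewer members met the list criteria in each of these fits than with all libraries. Calls among the other clock genes and over all genes rose or fell with the library left out. Over all genes they fell most without a Brg1-deficient library. Groups that did not overlap numbered 4 to 7 higher and 0 to 3 lower among members, and 7 to 14 higher and 6 to 18 lower among other clock genes. In these fits 37.2% to 41% of all genes were higher without overlap and 29.3% to 39.5% were lower. Log2 fold changes that changed sign ranged from -0.0089 to 0.039 for Arntl, -0.13 to 0.11 for Clock, -0.11 to 0.55 for Per2, -0.086 to 0.039 for Cry1, -0.26 to 0.22 for Cry2, -0.013 to 0.46 for Nr1d2, -0.51 to 0.060 for Rora and -0.46 to 0.55 for Hlf. None of these was called. With 2 libraries in each group and unknown depth, differences of the size seen in most members were within the error.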

Other observations

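Ratios of clock genes within a library do not depend on how libraries were scaled by a constant factor. Quantile normalization is not such a factor and can change ratios, and whether it was used is not given in the sources used here. These ratios were chosen after the values were seen and were not tested. The level of Nr1d1 was 3.78 and 3.86 times that of Arntl in the control libraries and 6.49 and 5.17 times in the Brg1-deficient libraries, with no overlap. The level of Dbp was 0.0597 and 0.0561 times that of its competitor Nfil3 in controls and 0.0924 and 0.102 times in Brg1-deficient cells, also with no overlap. Nr1d1 stood at 1.53 and 2.01 times Nr1d2 in controls and at 2.19 and 2.41 times without Brg1. The ratio of Cry1 to Cry2 overlapped between the groups, at 0.824 and 0.788 in controls and 0.708 and 0.913 in Brg1-deficient cells. That of Per1 to Per3 also overlapped, at 21.3 and 33.4 in controls and 24.1 and 15.7 in Brg1-deficient cells. That of Nr1d1 to Thra did not, at 19.5 and 19.2 in controls and 30.2 and 21.7 in Brg1-deficient cells.

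The mean profile of the 8 members with known E-box control (all but Arntl and Clock) was compared with every other tested gene over the 4 libraries. The nearest by Euclidean distance of centred log2(FPKM + 1) was Utp15 (distance 0.0232), with 16.2 and 15.8 FPKM in controls and 22.8 and 17.9 FPKM in Brg1-deficient cells. Pde8a (distance 0.0359) and Gm32856 (distance 0.0445) came next. With 4 libraries, likeness of this kind is a description only.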
